A study of Mus musculus with 6 samples.

Results

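Catenins are the cytoplasmic proteins that couple cadherin adhesion receptors to the cell's interior, and the 7 mouse genes of this family listed here are Ctnna1, Ctnna2, Ctnna3, Ctnnal1, Ctnnb1, Ctnnd1 and Ctnnd2. They were taken by gene symbol from the deposited table of gene counts, where all 7 of 22287 genes were found. The family was chosen by the measured difference of Ctnna2 between these mutants and controls, so the values of Ctnna2 in that comparison are a description without a test. The other 6 genes belong by name.

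The tissue sequenced was the root-forming apical end of lower first molars from C57BL/6 pups at postnatal day 7.5. The mutant group had the genotype Gli1-CreER;Arid1a fl/fl (3 libraries, replicates 3, 4 and 5), that is, Arid1a alleles flanked by recombination sites together with a tamoxifen-inducible Cre driven by Gli1. The control group had the genotype Arid1a fl/fl without Cre (3 libraries, replicates 2, 3 and 5), and all pups received tamoxifen on postnatal day 3.5. This Cre acts in cells that express Gli1, a Hedgehog-responsive gene, and the presence of CreER cannot be told apart from the loss of Arid1a. How many pups a library represents is not stated in the labels, so the p-values reflect variation among the sequenced libraries, which may be technical.

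In an adherens junction the cadherin tail binds beta-catenin and a p120-type catenin, beta-catenin binds alpha-catenin, and alpha-catenin binds and bundles actin filaments. Beta-catenin is also the transcriptional co-activator of canonical Wnt signalling, which is needed for tooth and root formation. The alpha-catenins comprise alpha-E-catenin (Ctnna1, found in most tissues), alpha-N-catenin (Ctnna2, best known from neurons) and alpha-T-catenin (Ctnna3, best known from heart and testis).

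The libraries held 20453247 to 24255352 estimated gene counts. Levels are counts per 1000000 TMM-scaled library counts (CPM), and 17305 genes passed the filter on low counts and were tested with edgeR's quasi-likelihood test. At a Benjamini-Hochberg adjusted p under 0.05, 114 genes rose (0.659%) and 208 fell (1.20%) in mutants. Arid1a, the targeted gene, stood at 120, 134 and 130 CPM in mutants and at 210, 202 and 204 CPM in controls (replicates in the order above), a log2 fold change of -0.68 (SE 0.07, adjusted p = 0.0129, edgeR). The groups did not overlap, but the adjusted p was 0.0506 with control replicate 2 left out and 0.0529 with control replicate 3 left out, so the call did not hold there, nor with the replicate number as a block (0.0769). Tooth tissue was visible in every library, with Dspp, the dentin matrix gene, between 6911 and 9983 CPM in mutants and between 8586 and 9575 CPM in controls.

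Ctnna2 was the one catenin with a large difference between the genotypes. It stood at 53.8, 85.8 and 54.8 CPM in mutants and at 351, 315 and 457 CPM in controls. Each mutant library lay far below each control library. The fitted log2 fold change was -2.53 (SE 0.22), which places the mutant level at 0.173 of the control level. Among the 208 genes called lower (1.20% of those tested), 5 had a more negative log2 fold change than Ctnna2. In bulk tissue, fewer Ctnna2-expressing cells and less Ctnna2 RNA per cell cannot be told apart. The expected counts behind these values were 1393, 1978 and 1249 in mutants and 7207, 6721 and 8402 in controls, so Ctnna2 was a well-covered transcript in all 6 libraries.

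In mm10, Ctnna2 occupies 1098063 bases of chromosome 6 (76881637 to 77979699, minus strand). The 250 bases upstream of its RefSeq start are shown beside those of Lrrtm3, because these are the genes of the set described here whose levels differed most between the groups. Capitals mark the GC box letters GGGCGG, searched on both strands.
Ctnna2, chr6:77979668-77979917, minus strand, GRCm38.p6: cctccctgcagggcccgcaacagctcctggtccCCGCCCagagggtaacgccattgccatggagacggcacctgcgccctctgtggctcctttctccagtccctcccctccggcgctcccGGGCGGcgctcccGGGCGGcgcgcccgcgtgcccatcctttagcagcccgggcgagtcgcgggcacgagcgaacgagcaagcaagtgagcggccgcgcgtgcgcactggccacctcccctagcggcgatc
Lrrtm3, chr10:64090256-64090505, minus strand, GRCm38.p6: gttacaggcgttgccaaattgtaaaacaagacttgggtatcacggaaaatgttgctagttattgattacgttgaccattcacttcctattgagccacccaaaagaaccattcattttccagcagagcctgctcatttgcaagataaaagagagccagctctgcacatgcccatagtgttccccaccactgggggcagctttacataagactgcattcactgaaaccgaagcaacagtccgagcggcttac
The Ctnna2 window held 30 CpG dinucleotides, a GC content of 73.2% and 3 GC box matches, letters that 32.7% of the 32851 RefSeq windows of this length contain. The Lrrtm3 window held 6 CpG dinucleotides, a GC content of 46% and 0 GC box matches. Neither window held the Gli core letters ACCACCC (3.92% of all windows) or the Tcf/Lef core letters CTTTGAT (3.21%) on either strand, which says only that these letters are not in these windows. Over all windows the median was 6 CpG dinucleotides and the 90th percentile 25. Catenins that were not called had such windows too, with 35 and 43 CpG dinucleotides and 3 and 2 GC box matches at Ctnnb1. Ctnnal1 had 18 CpG dinucleotides and 3 GC box matches, while the windows of Ctnnd1 and Ctnnd2 had 0 GC box matches. Ctnna3, which was barely detected, had a window with 36 CpG dinucleotides and 1 GC box match. Another Ctnna3 window held 1 match to the Gli core letters. A window of Ctnna1 is not given here.

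Ctnna1, the alpha-catenin of most epithelia and mesenchyme, did not follow Ctnna2. It stood at 267, 241 and 230 CPM in mutants and at 233, 241 and 241 CPM in controls. The groups overlapped, and the log2 fold change was 0.04 (95% interval -0.14 to 0.23, adjusted p = 0.852, edgeR). The interval therefore covers mutant levels between 0.908 and 1.17 of the control level. In mm10, Ctnna1 occupies 35118859 to 35254779 of chromosome 18, plus strand.

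Ctnna3 was barely detected. Its expected counts were 4, 8 and 4 in mutants and 5, 8 and 4 in controls, against library totals of 20453247 or more. It was removed by the filter on low counts, so no test of it was made in the main fit. With no such filter its log2 fold change was -0.31 (adjusted p = 0.879, edgeR), and so few counts limit what could be detected. Ctnna3 lies on chromosome 10 from 63430098 to 65003667.

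Ctnnal1 encodes alpha-catulin, a relative of alpha-catenin and vinculin. It stood at 15.7, 12.8 and 12 CPM in mutants and at 13.5, 13.2 and 12 CPM in controls. The groups overlapped and the log2 fold change was 0.06 (95% interval -0.24 to 0.36, adjusted p = 0.873, edgeR). The gene lies on chromosome 4 from 56810935 to 56865188 on the minus strand.

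Ctnnb1, which encodes beta-catenin, was the most abundant member. It stood at 869, 851 and 825 CPM in mutants and at 905, 948 and 1086 CPM in controls. All mutant libraries were below all control libraries, a pattern that 21.3% of the tested genes showed in either direction. The difference did not pass the test (log2 fold change -0.21, 95% interval -0.43 to 0.01, adjusted p = 0.363, edgeR). It became -0.00 when libraries were scaled by their totals alone, a scaling that moved the median of all genes from 0.01 to 0.21. Ctnnb1 lies on chromosome 9 from 120929216 to 120960507 on the plus strand.

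The p120-type catenins bind the membrane-proximal part of the cadherin tail and hold cadherins at the surface. Ctnnd1, which encodes p120 catenin itself, stood at 182, 197 and 188 CPM in mutants and at 187, 202 and 218 CPM in controls. Ctnnd2, which encodes the delta-catenin best known from neurons, stood at 94.1, 79.8 and 102 CPM in mutants and at 86, 89.5 and 104 CPM in controls. In both genes the groups overlapped and the difference did not pass. The log2 fold change was -0.10 for Ctnnd1 (95% interval -0.29 to 0.09, adjusted p = 0.645, edgeR). For Ctnnd2 it was -0.02 (95% interval -0.28 to 0.24, adjusted p = 0.947, edgeR). Ctnnd1 lies on chromosome 2 from 84600071 to 84650765 and Ctnnd2 on chromosome 15 from 30172593 to 31029341.

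Of the 5 other catenins that were tested, 0 were called, where 1.86% of all tested genes were. The count was also 0 with DESeq2 and with limma-voom. At an unadjusted p under 0.05 it was 0 in edgeR and 1 in DESeq2. Their log2 fold changes ran from -0.21 to 0.06 with a median of -0.02, against a median of 0.01 over all genes tested. Of the 5, 2 were positive and 3 negative, and Ctnnd1 and Ctnnd2 turned positive with scaling to library totals alone, which moved the median of all genes to 0.21. The fitted change of Ctnna2 was 2.32 to 2.59 log2 units below that of each of these genes.

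**Figure D1:**
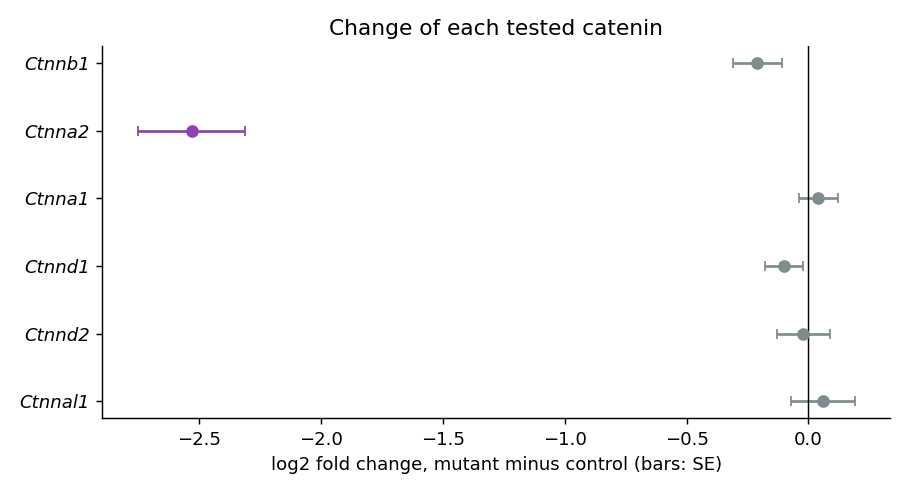
Fitted log2 fold change (mutant minus control) of the 6 tested catenins on the horizontal axis, with bars for the SE and 3 libraries per group. Ctnna2 sits at -2.53, and the others lie between -0.21 and 0.06.

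Levels of different genes were compared per kilobase of exon, using exon lengths of GENCODE M21. In mutants the order of mean levels was Ctnnb1 (163 CPM per kb), Ctnna1 (38.3), Ctnnd1 (25.8), Ctnna2 (9.33), Ctnnd2 (8.9), Ctnnal1 (1.76) and Ctnna3 (0.0312). In controls it was Ctnnb1 (189 CPM per kb), Ctnna2 (53.9), Ctnna1 (37.1), Ctnnd1 (27.6), Ctnnd2 (9.05), Ctnnal1 (1.68) and Ctnna3 (0.0385). Ctnna2 thus held the fourth place in mutants and the second in controls, and the other members kept their order relative to each other. Neighbours in the order did not overlap in either group, except Ctnna2 and Ctnnd2 in mutants, whose libraries ran from 7.75 to 12.4 and from 7.74 to 9.84 CPM per kb. Among the 22285 genes with a length, Ctnna2 ranked 4471 in mutants and 608 in controls.

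**Figure D2:**
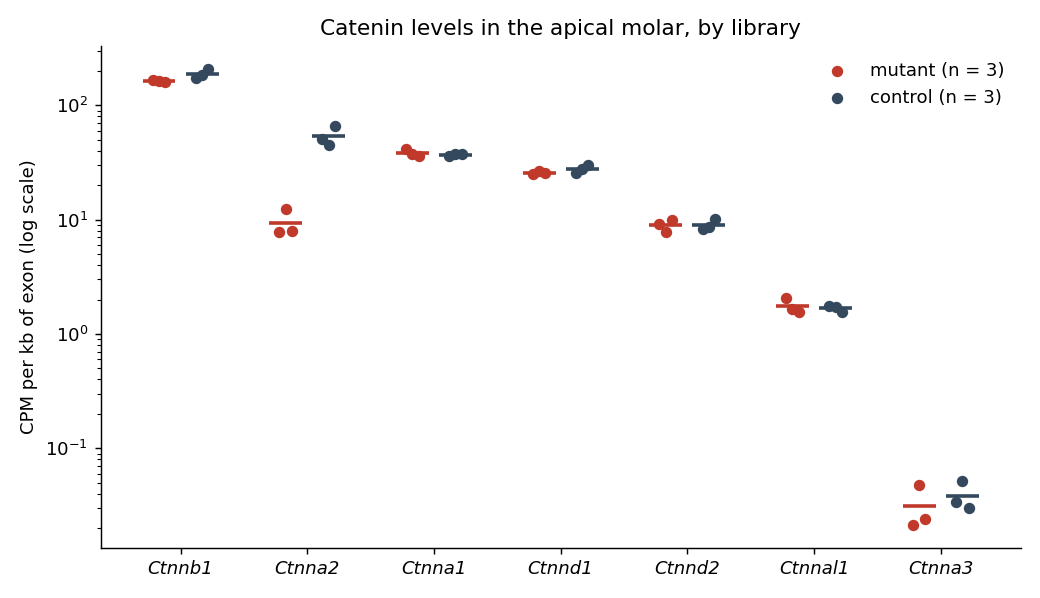
Level of each catenin in CPM per kb of exon (log axis), 1 point per library, with a line at the mean of the 3 mutant or 3 control libraries. Ctnna2 is at 7.75 to 12.4 in mutants and at 45.3 to 65.8 in controls, while the groups of the other members lie close together.

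The replicates of Ctnna2 also varied more than those of most other members. Its coefficient of variation (SD over mean CPM) was 28% in mutants and 19.8% in controls. That of Ctnna1 was 7.6% in mutants and 1.95% in controls, and that of Ctnnb1 was 2.57% in mutants and 9.66% in controls. Ctnna3, at a handful of counts, was the most variable, at 46.8% in mutants and 30.2% in controls.

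Because Ctnna1 and Ctnna2 have exons of similar total length (6425 and 6947 bases), the makeup of the alpha-catenin RNA can be read within each library. Ctnna2 made up 15.7%, 24.8% and 18% of the summed length-scaled level of Ctnna1, Ctnna2 and Ctnna3 in mutants. In controls it made up 58.1%, 54.7% and 63.7%. The major alpha-catenin transcript was therefore Ctnna1 in each mutant library and Ctnna2 in each control library. Ctnna2 averaged 0.245 ± 0.0746 of the Ctnna1 level in mutants and 1.45 ± 0.278 of it in controls (SD, n = 3 each).

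The summed alpha-catenin level averaged 47.6 ± 3.38 CPM per kb in mutants and 91 ± 10.9 CPM per kb in controls (SD, n = 3 each). Set against beta-catenin, its partner in the junction, this sum was 0.291 ± 0.0148 of the Ctnnb1 level in mutants and 0.482 ± 0.0242 in controls. The ratio of Ctnna1 alone to Ctnnb1 was 0.234 ± 0.0122 in mutants and 0.198 ± 0.0158 in controls. These sums contain the Ctnna2 values that led to the choice of the family, so they carry no test. RNA shares say nothing of the amounts of protein.

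**Figure D3:**
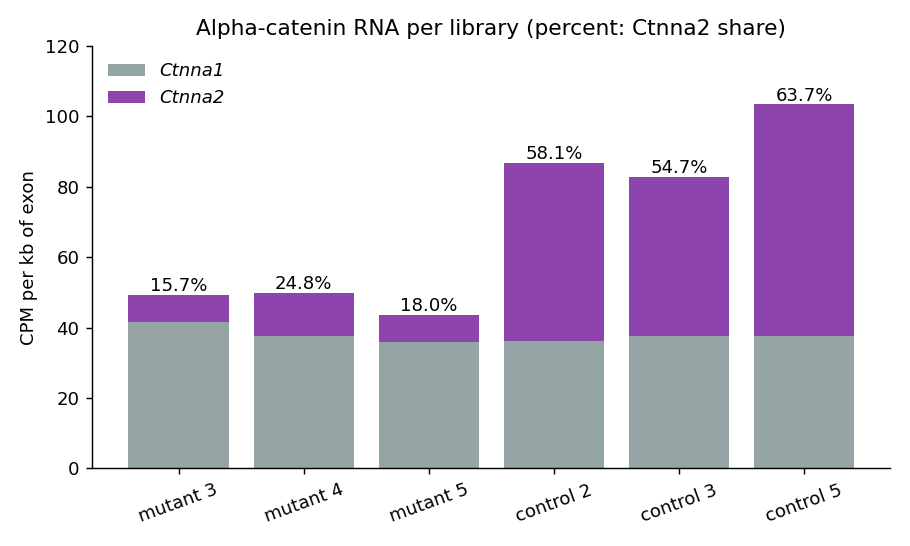
Summed level of Ctnna1 (grey) and Ctnna2 (purple) in CPM per kb of exon, 1 bar per library, with the percent of alpha-catenin RNA that was Ctnna2 above each bar. The grey part is of similar height in all 6 libraries, and the purple part is 15.7% to 24.8% of the bar in mutants and 54.7% to 63.7% in controls.

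Each alpha-catenin gene contains a gene of the Lrrtm family, whose members encode synaptic leucine-rich repeat adhesion proteins, on the opposite strand inside its span. Lrrtm1, inside Ctnna2, occupies 77242689 to 77257791 of chromosome 6 on the plus strand, and 0 of its 9 annotated exons overlap an exon of Ctnna2. It stood at 44.1, 62.4 and 61.3 CPM in mutants and at 49.4, 51 and 38.9 CPM in controls. The groups overlapped and the difference did not pass (log2 fold change 0.27, 95% interval -0.09 to 0.63, adjusted p = 0.485, edgeR). The interval reaches down to 0.937 of the control level, whereas its host gene stood at 0.173 of it.

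Lrrtm3, inside Ctnna3 on chromosome 10 from 63928472 to 64090277, rose in mutants. It stood at 5.68, 8.5 and 6.23 CPM in mutants and at 1.7, 2.11 and 1.47 CPM in controls, from 142 to 196 and from 27 to 45 expected counts. The groups did not overlap, and the mutant level was 3.84 of the control level (log2 fold change 1.94, SE 0.23, adjusted p = 0.0144, edgeR). Its host Ctnna3 had 4 to 8 counts in every library, and 0 of the 9 annotated exons of Lrrtm3 overlap an exon of Ctnna3. Leaving out any control library ended the call, with adjusted p-values of 0.0532 (replicate 2), 0.0529 (replicate 3) and 0.062 (replicate 5) and log2 fold changes between 1.84 and 2.10.

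Lrrtm2, inside Ctnna1, was near the detection limit. It stood at 1.08, 1.56 and 0.527 CPM in mutants and at 0.73, 0.843 and 0.381 CPM in controls, and it did not pass (log2 fold change 0.68, adjusted p = 0.561, edgeR). Here 2 of the 4 annotated Lrrtm2 exons overlap exons of Ctnna1, and no source used here states whether strand was kept, so the counts of these genes are uncertain.

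**Figure D4:**
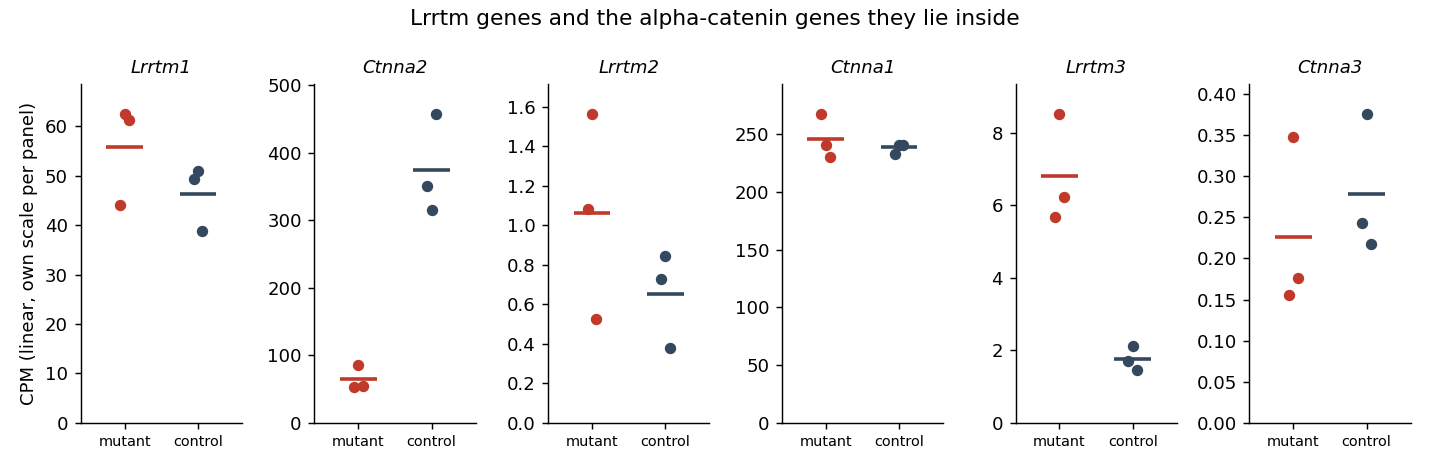
CPM of each Lrrtm gene beside the alpha-catenin gene it lies inside, with a point per library, a line at the group mean and a linear axis of its own from 0 in each panel. Ctnna2 is low and Lrrtm3 high in mutants, while Lrrtm1, Lrrtm2, Ctnna1 and Ctnna3 overlap between the groups.

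The surroundings of Ctnna2 hold few measured genes. Within 1000000 bases of either end, the count table lists 3 other genes, which are Lrrtm1 and the processed pseudogenes Gm44126 and Gm5576. Of these 0 were called (1.86% of all tested genes were), and Gm44126 (log2 fold change 0.07, adjusted p = 0.865, edgeR) and Gm5576 (-0.28, adjusted p = 0.409, edgeR) did not pass. Pseudogene counts are uncertain because reads can be shared with the parent gene.

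Among the adhesion receptors, junction partners and pathway genes of the catenins, few changes passed the adjusted test. Over the 8 lists of partner and pathway genes, 76 of 82 genes were tested, 1 rose and 0 fell, a share of 1.32% called against 1.86% of all genes. The riser was Lrrtm3, and the median log2 fold change of the 76 genes was -0.01, against 0.01 for all genes. At an unadjusted p under 0.05, 10 were higher and 10 lower, or 20 of 76 (26.3%). This was a larger share than the 2588 of all 17305 genes that met the same threshold, and the excess was not tested. The counts at this threshold in the single lists and cell markers below have the same all-gene reference. DESeq2 called 7 of the 74 listed genes to which it gave an adjusted p (9.46%, against 5.26% of all genes). Limma-voom called 1 of 76 (1.32%, against 1.56% of all genes).

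Of 13 classical cadherins tested, which carry the catenins at the membrane, 0 were called, with a median log2 fold change of 0.20. At an unadjusted p under 0.05 there were 4, and DESeq2 and limma-voom called 0. The most abundant was Cdh11, the cadherin of mesenchyme and osteoblasts, at 414 ± 33.9 CPM in mutants and 356 ± 24.7 CPM in controls (SD, n = 3 each; adjusted p = 0.331, edgeR). Cdh2, N-cadherin, stood at 220 ± 12.6 CPM in mutants and 266 ± 24.8 CPM in controls (adjusted p = 0.203). The epithelial cadherin Cdh1, chosen after its values were seen, stood at 140, 136 and 107 CPM in mutants and at 142, 161 and 175 CPM in controls (adjusted p = 0.273). The groups did not overlap in 6 of the 13 cadherins, a pattern that 21.3% of all tested genes showed in either direction. In these 6 the mutant libraries were higher in 3 (Cdh10, Cdh11 and Cdh18) and lower in 3 (Cdh1, Cdh2 and Cdh24).

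Of the 12 genes on the actin side of alpha-catenin, 0 were called and the median log2 fold change was -0.07. At an unadjusted p under 0.05 there were 5, and limma-voom called 0. The most abundant were Actn4, an actin cross-linker, at 348 ± 29.1 CPM in mutants and 387 ± 28.8 CPM in controls (adjusted p = 0.517, edgeR), and Tjp1, the tight junction scaffold ZO-1. Tjp1 stood at 243, 220 and 165 CPM in mutants and at 272, 308 and 283 CPM in controls, and all mutant libraries were below the controls (log2 fold change -0.46, adjusted p = 0.164, edgeR). Vcl, chosen after its values were seen, encodes vinculin, which alpha-catenin recruits under tension. It stood at 107 ± 10.8 CPM in mutants and 83.8 ± 4.34 CPM in controls (log2 fold change 0.35, adjusted p = 0.112, edgeR). DESeq2 called both of these genes (adjusted p = 0.033 for Vcl and 0.0312 for Tjp1).

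Of the 10 genes of the Arp2/3 complex, the actin-branching machine that alpha-N-catenin is known to restrain in neurons, 0 were called and the median log2 fold change was 0.08. At an unadjusted p under 0.05 there was 1, and DESeq2 and limma-voom called 0. Arpc2 stood at 132 ± 9.64 CPM in mutants and 131 ± 8.28 CPM in controls (SD, n = 3 each; 95% interval of the log2 fold change -0.18 to 0.21). Actr2 stood at 128 ± 2.14 CPM in mutants and 122 ± 2.28 CPM in controls (95% interval -0.08 to 0.21). All mutant libraries were above all control libraries in 4 of the 10 genes, Actr2 among them, and below in 0. Over all tested genes, 21.3% had groups that did not overlap, in either direction. Of the 10 log2 fold changes, 7 were positive and 3 negative.

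The 5 nectin genes, the second receptor system of adherens junctions, gave 0 calls and a median log2 fold change of 0.03. Nectin1 stood at 139, 111 and 114 CPM in mutants and at 154, 179 and 194 CPM in controls. All its mutant libraries were below its control libraries, but it did not pass (log2 fold change -0.53, adjusted p = 0.0773, edgeR). DESeq2 called it (adjusted p = 0.00202), limma-voom called 0 of the list, and 1 nectin, this one, had an unadjusted p under 0.05. Nectin3 stood at 132 ± 34.4 CPM in mutants and 129 ± 16.6 CPM in controls (adjusted p = 0.954, edgeR).

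On the beta-catenin side, 18 relatives and regulators gave 0 calls, with a median log2 fold change of -0.08, 4 genes at an unadjusted p under 0.05 and 0 calls by limma-voom. The casein kinase gene Csnk1a1, which primes beta-catenin for destruction, stood at 274 ± 4.87 CPM in mutants and 290 ± 19.2 CPM in controls (adjusted p = 0.683, edgeR). The destruction scaffold gene Apc stood at 239 ± 38.4 CPM in mutants and 292 ± 14 CPM in controls (adjusted p = 0.299, edgeR). Gsk3b, the kinase gene of the same complex and chosen after its values were seen, stood at 186 ± 14 CPM in mutants and 254 ± 24.3 CPM in controls (adjusted p = 0.0707, edgeR), and DESeq2 called it (adjusted p = 0.00171). The plakoglobin gene Jup, the closest relative of Ctnnb1, was also chosen after its values were seen and stood at 159, 103 and 73.7 CPM in mutants and at 89.3, 117 and 108 CPM in controls (adjusted p = 0.908, edgeR).

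Of 10 genes transcribed in response to beta-catenin, 0 were called, with a median log2 fold change of -0.00, 2 genes at an unadjusted p under 0.05 and 0 calls by limma-voom. Tnfrsf19, a receptor gene, stood at 152 ± 7.35 CPM in mutants and 143 ± 14.5 CPM in controls (adjusted p = 0.724, edgeR), and Apcdd1, an inhibitor gene of the pathway, at 63.5 ± 2.33 CPM in mutants and 70 ± 2.12 CPM in controls (adjusted p = 0.381, edgeR). DESeq2 called Lgr5, a stem-cell receptor gene (3.7 ± 0.93 CPM in mutants, 1.42 ± 0.427 CPM in controls, edgeR adjusted p = 0.0738), and Znrf3, a ligase gene that removes Wnt receptors (33 ± 2.8 CPM in mutants, 41.7 ± 1.76 CPM in controls, edgeR adjusted p = 0.107), both chosen after their values were seen. Of 5 relatives and partners of p120 catenin, 0 were called, with 2 at an unadjusted p under 0.05 and 0 calls by DESeq2 and limma-voom. In this list the plakophilin genes Pkp1 (206 ± 37.3 CPM in mutants, 247 ± 31.3 CPM in controls) and Pkp4 (166 ± 4.4 CPM in mutants, 145 ± 13.4 CPM in controls) were the most abundant.

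Across the 6 libraries, the 5 genes whose level, as log2(CPM + 1), was most like that of Ctnna2 were Rims3, Lclat1, Fam20a, Myo19 and Pstpip1. Their Pearson r ran from 0.996 to 0.999 among the 12108 genes averaging 5 CPM or more. This likeness rests on the gap between the genotypes, which all 6 points share, and is a description. Fam20a, which encodes the partner of the secretory kinase Fam20c and is needed for enamel, stood at 109, 124 and 108 CPM in mutants and at 220, 204 and 254 CPM in controls. Pstpip1, a gene for a cytoskeletal adaptor protein, stood at 11.2, 15 and 13 CPM in mutants and at 39.6, 34.7 and 44.6 CPM in controls. In both genes the highest mutant library was replicate 4 and the highest control library was replicate 5, as for Ctnna2. The choice of these genes by likeness over the same 6 libraries favours such a match. Of the catenins, Ctnnb1 had an r of 0.83 with Ctnna2, Ctnnd1 of 0.66, Ctnnd2 of 0.04, Ctnnal1 of -0.30 and Ctnna1 of -0.33.

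Genes of ameloblasts, the enamel-forming epithelial cells, went in both directions. Amelx, which encodes the main enamel matrix protein, stood at 46247, 62078 and 37117 CPM in mutants and at 109351, 119895 and 209047 CPM in controls. Mmp20, the enamel protease gene, stood at 338, 446 and 370 CPM in mutants and at 678, 746 and 836 CPM in controls. Both fell (log2 fold change -1.59, adjusted p = 0.047 for Amelx, and -0.97, adjusted p = 0.0205 for Mmp20, edgeR), while Enam, another matrix gene, did not pass (-0.98, adjusted p = 0.0645, edgeR). Enam passed with DESeq2 (adjusted p = 4.73e-06), limma-voom (0.0496), the replicate block (0.0116) and without mutant replicate 4 (0.0246), and ranged up to 0.179 in the other alternatives. The Amelx call was lost whichever library was left out (adjusted p = 0.0799 to 0.123), and the Mmp20 call without mutant replicate 5 (0.0585) or control replicate 2 (0.0532), 3 (0.0765) or 5 (0.0754). Of the 7 ameloblast markers, 0 rose, 2 fell and 5 did not pass in edgeR, while DESeq2 called 4 and limma-voom 3. The shares called over all genes were 1.86% by edgeR, 5.26% by DESeq2 and 1.56% by limma-voom. The log2 fold changes of the other members were -0.78 for Ambn (adjusted p = 0.124), 0.42 for Klk4 (0.721), 0.93 for Odam (0.624) and 0.79 for Amtn (0.54). Odam and Amtn, genes known from maturation-stage ameloblasts, averaged 2151 ± 1951 and 1486 ± 1082 CPM in mutants, against 1127 ± 879 and 857 ± 408 CPM in controls (SD, n = 3 each), with overlapping groups. The summed level of the list, most of it Amelx and Ambn, was 68589 to 114777 CPM in mutants and 178889 to 278045 CPM in controls.

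The fitted difference in Ctnna2 was larger than that in Amelx, Enam and Mmp20. Per 1000 CPM of Amelx, Ctnna2 had 1.16, 1.38 and 1.48 CPM in mutants and 3.21, 2.62 and 2.19 CPM in controls. Per 1000 CPM of Enam it had 7.89, 7.39 and 7.34 CPM in mutants and 21.8, 18.2 and 26 CPM in controls. Per 1000 CPM of Krt14, a keratin gene of the dental epithelium, it had 55.4, 115 and 107 CPM in mutants and 558, 389 and 615 CPM in controls. In all 3 ratios the groups did not overlap. These ratios contain the Ctnna2 values that led to the choice of the family, so they carry no test. The part of ameloblast number or state in the Ctnna2 result was not tested.

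**Figure D5:**
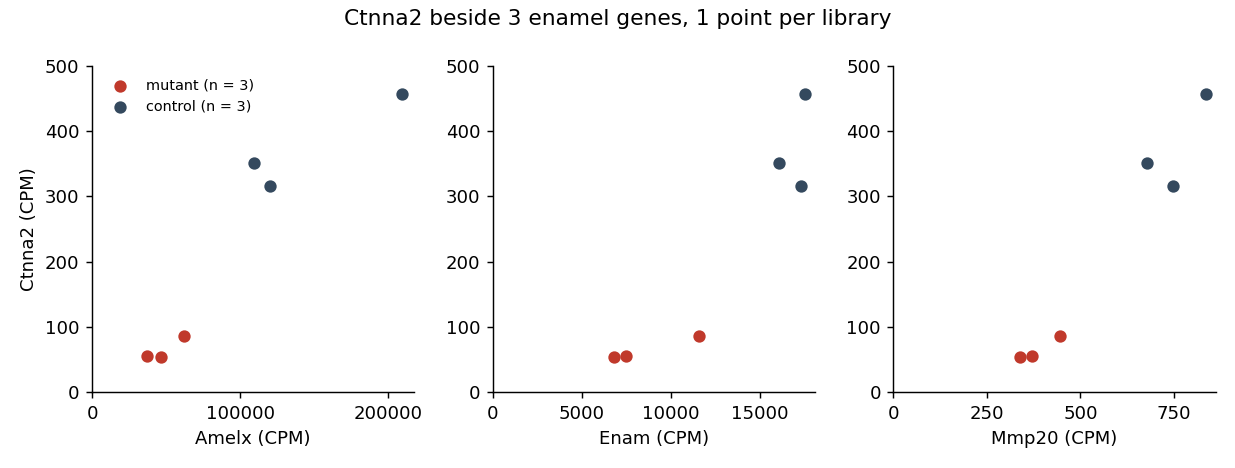
Ctnna2 (vertical axis, CPM) against Amelx, Enam and Mmp20 (horizontal axes, CPM), 1 point per library, all axes linear from 0. The 3 mutant libraries lie at 53.8 to 85.8 CPM of Ctnna2 and the 3 control libraries at 315 to 457 CPM, and the mutant libraries are lower on each horizontal axis too.

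Other cell markers were set beside these results. General markers of dental epithelium summed to 1956 to 3224 CPM in mutants and 2582 to 3303 CPM in controls. Of these 9 markers 0 were called by edgeR (3 at an unadjusted p under 0.05), 0 by limma-voom and 2 by DESeq2 (Trp63 and Krt17, both lower), and 7 of the 9 log2 fold changes were negative. The 12 neuronal markers, listed because alpha-N-catenin is best known from neurons, summed to 97 to 101 CPM in mutants and 74.9 to 86.1 CPM in controls. Tubb3 was the largest part of this sum (mean 51.9 CPM in mutants, 44.6 CPM in controls), and 5 of the 12 averaged under 10 counts. Of the 12 markers, 7 were tested, with 6 positive log2 fold changes and 1 negative. By edgeR 0 were called (3 at an unadjusted p under 0.05), by limma-voom 0, and by DESeq2 1, Gap43 (higher). Nefl, Nefm and Prph were at 0 in at least 1 library. Markers of odontoblasts summed to 9273 to 12852 CPM in mutants and 10831 to 11906 CPM in controls. Of these 6, edgeR called 1 (Wnt10a, lower) and DESeq2 called 2 (Wnt10a, lower, and Bglap, higher). Those of the dental follicle and periodontal ligament summed to 1101 to 1372 CPM in mutants and 703 to 879 CPM in controls (2 of 7 called by edgeR, higher, and 4 by DESeq2).

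Erythroid markers summed to 2366 to 5510 CPM in mutants and 1423 to 1948 CPM in controls. All 6 tested erythroid markers had a positive log2 fold change, with a median of 1.07, and 0 were called by edgeR (5 at an unadjusted p under 0.05), 0 by limma-voom and 4 by DESeq2 (Hba-a1, Hba-a2, Hbb-bs and Alas2). Leukocyte markers summed to 231 to 292 CPM in mutants and 162 to 214 CPM in controls (1 of 5 tested called by edgeR, higher; Cd3e was at 0 in a library). Schwann cell markers (118 to 130 CPM in mutants, 126 to 137 CPM in controls), endothelial markers (307 to 319 CPM in mutants, 270 to 308 CPM in controls) and muscle markers (4.57 to 12.1 CPM in mutants, 5.61 to 27 CPM in controls) had 0 called by edgeR or limma-voom. At an unadjusted p under 0.05 there were 5, 1 and 0 in these lists, and DESeq2 called 2 Schwann cell markers and 0 of the others. The part of these cell types in the Ctnna2 and Lrrtm3 results was not tested.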

How the data were processed

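Apical molar RNA of 3 mutant and 3 control libraries was sequenced single-end with 75 cycles, per the labels' protocols. Per the submitters' processing notes, the build was mm10 and the named tools were Partek and STAR 2.6.1d. Their roles, the annotation and the strandedness were not stated. The authors deposited expected counts per gene (estimated counts, 53.8% of them whole within 0.001) and a table of normalized signal for 18665 genes, which was used for 1 alternative. Members and gene lists were chosen with earlier results of these data known. Libraries were grouped by genotype label; replicate numbers come from the titles.

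Expected counts were rounded, filtered with filterByExpr by group, scaled by TMM and tested with edgeR 4.0.16 (quasi-likelihood F test, Benjamini-Hochberg over 17305 genes, R 4.3.3). Ctnna2 was in this fit and its counts of calls, but its p is not used as evidence. The SE was taken as |log2 fold change|/√F, and 95% intervals use the test's degrees of freedom. No library was a copy of another (within groups, chi-square per df was 24.5 to 45). Positions and exon lengths come from GENCODE M21, which matched name, chromosome and start of 22285 genes, and promoter windows from RefSeq (GRCm38.p6). Named genes were the 7 members, Arid1a, called genes and the 2 most abundant in each list, genes within 1000000 bases of Ctnna2 and the 5 most like it. Cell markers and the genes marked as such in the text fall outside this rule and were picked once values were known. Alternatives were RLE factors, library totals, no filter, a minimum of 1 CPM in 3 libraries, limma-voom (limma 3.58.1), DESeq2 1.42.0, a replicate block and each library left out. Scripts were tested on simulated data.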

Additional observations from a re-analysis of the deposited data

How the results depend on the processing

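The Ctnna2 log2 fold change ranged from -2.80 to -2.32 over the 14 alternatives, including each library left out (-2.78 to -2.35) and the authors' normalized table, and its share of alpha-catenin from 16.9% to 21.4% in mutants and from 56.4% to 60.9% in controls. The count of other catenins called was 0 in all 13 refits. Among these uncalled members, signs changed for Ctnnd1 (0.11) and Ctnnd2 (0.19) with library totals alone, and with a library left out for Ctnnd2 (-0.10 to 0.07, positive without mutant replicate 4 or control replicate 5), Ctnna1 (-0.02 to 0.09) and Ctnnal1 (-0.06 to 0.14), both negative without mutant replicate 3. Genes called numbered 411 higher and 109 lower with library totals alone (79% higher, against 35.4%) and 364 higher and 510 lower with DESeq2. With each library left out they ranged from 1 to 105 higher and from 10 to 138 lower, fits that have fewer samples. The listed partner genes called numbered 5 with library totals alone, 7 with DESeq2 and 0 to 3 with a library left out, against 1; the cause was not tested.

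The labels speak of pairs of samples without saying which. Replicate numbers 3 and 5 occur in both groups. Deviations from the group means correlated at 0.267 for replicate 3 and -0.144 for replicate 5. These values had no reference distribution, and each group mean includes a library whose number is absent from the other group. They therefore cannot decide whether libraries with the same replicate number were paired. With this number as a replicate block, 19 genes were higher and 71 lower, 0 listed partner genes were called, Lrrtm3 had an adjusted p of 0.0921 and Ctnnd2 a log2 fold change of 0.02. Low counts limit Ctnna3 and Lrrtm2.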

Other observations

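By deviations from the group means, which leave out the gap between the genotypes, the 5 genes most like Ctnna2 over the 6 libraries were Gm13082, Map4k5, Fbxw2, Ebf3 and Cnot7, with Pearson r of 0.993 or more among 12108 genes. Their difference between the genotypes did not pass (edgeR adjusted p from 0.554 to 0.807). This likeness rests on 6 points with the group means removed and was picked out of 12108 genes. So high an r can then arise between unrelated genes, and the list is a description. By the same measure Ctnnd1 had an r of 0.70, Ctnnb1 of 0.51, Ctnna1 of -0.16, Ctnnd2 of -0.24 and Ctnnal1 of -0.47 with Ctnna2.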
